A study of Mus musculus with 6 samples.

Results

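The 10 genes described here encode the CREB family of transcription factors and the coactivators that work with them, and the list is one of gene names, drawn up when earlier results of these data were known. They are the cAMP-responsive factors *Creb1*, *Atf1* and *Crem*, the membrane-bound factors *Creb3* and *Creb3l1*, the CREB-regulated coactivators *Crtc1*, *Crtc2* and *Crtc3*, and the acetyltransferases *Crebbp* and *Ep300*. All 10 were found among the 55367 gene symbols of the series, and all 10 were among the 14862 genes tested, which had an FPKM (fragments scaled by gene length and library size) of at least 1 in at least 2 libraries. FPKM reached 1 in all 6 libraries for 9 of the 10, and *Crtc1* was below 1 in 1 ADPKD+MMPP library. The data are RNA-seq of mouse kidney cells that bind the lectin DBA, which marks the collecting duct, collected at Day115. The 3 groups had 2 libraries each. The WT mice had intact *Pkd1* and received saline. The ADPKD mice were *Pkd1*-/- and received saline, and the ADPKD+MMPP mice were *Pkd1*-/- and received MMPP, a melanin-like nanoparticle that carries PEG and chelated Mn2+. Per the methods, the knockout was induced with tamoxifen in male *Pkd1* fl/fl;Cre/Esr1+ mice, so that *Pkd1* is lost in every cell type in which the Cre is active, and the sources used here do not give whether the WT mice carried the Cre. The labels do not say whether the 2 libraries of a group came from separate animals, so p-values measure only the spread between these libraries, which may be technical.

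CREB stands at the end of the cAMP pathway. Cyclic AMP activates protein kinase A, which phosphorylates CREB in its kinase-inducible domain, and the phosphorylated factor binds the acetyltransferases CBP and p300 at promoters that carry the cAMP response element, the CRE. The CRTC coactivators bind the basic leucine zipper of CREB by a separate route: salt-inducible kinases hold them in the cytoplasm by phosphorylation, and calcineurin frees them. CREB3 and its relative CREB3L1 sit in the endoplasmic reticulum membrane and are cut free in the Golgi by the site-1 and site-2 proteases. In the collecting duct vasopressin raises cAMP, and raised cAMP is a known feature of cystic epithelium in polycystic kidney disease. RNA-seq measures transcript levels only, and phosphorylation, cleavage and the place of these proteins in the cell were not measured.

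The promoters of the family were examined for the letters that CREB itself reads. RefSeq promoter windows of GRCm38.p6, from 250 bases before to 50 bases after the annotated start, were available for 7 of the 10 genes, all but *Crem*, *Creb3l1* and *Crtc2*. The full CRE, TGACGTCA, was in none of these 7 windows and in 1.79% of all 32851 windows. Its shorter core, TGACG, searched on both strands and contained in the full CRE, was in 1 of the 7, that of *Atf1*, and in 20.8% of all windows. The GC box GGGCGG, searched on both strands, was in 6 of the 7 (*Creb1*, *Atf1*, *Creb3*, *Crtc3*, *Crebbp* and *Ep300*) and in 35.7% of all windows. The 250 bases before the RefSeq start are shown for *Creb1*, the founding member, and for *Atf1*. Those of *Creb1* are at chr1:64532554-64532803 on the plus strand, with the GC box in capitals at position -64. Those of *Atf1* are at chr15:100227609-100227858 on the plus strand, with the CRE core in capitals at position -90. The GENCODE gene spans given below start earlier, at 64532645 for *Creb1* and 100227819 for *Atf1*, so each stretch runs past that start. The marked GC box of *Creb1* lies after the GENCODE start.
Creb1: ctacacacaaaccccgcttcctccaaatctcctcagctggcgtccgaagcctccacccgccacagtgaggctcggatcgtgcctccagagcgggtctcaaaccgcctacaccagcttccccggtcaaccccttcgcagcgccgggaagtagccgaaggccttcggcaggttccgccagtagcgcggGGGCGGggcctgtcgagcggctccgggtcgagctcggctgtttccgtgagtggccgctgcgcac
Atf1: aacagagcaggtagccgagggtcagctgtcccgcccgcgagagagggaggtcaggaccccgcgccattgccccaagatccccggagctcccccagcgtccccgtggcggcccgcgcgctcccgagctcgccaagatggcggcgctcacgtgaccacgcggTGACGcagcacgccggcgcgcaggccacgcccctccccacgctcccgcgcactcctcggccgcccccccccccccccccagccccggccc
A match describes the letters in the window and not a bound site.

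The libraries differed in ways that bear on every value below. Depth, read from the steps of the FPKM values, was 30.6 to 33.1 M reads in the WT and ADPKD libraries and 10.9 to 11.8 M reads in the ADPKD+MMPP libraries. Odd read numbers made up 35.2% to 37.2% of the low values in the former and 7.17% to 7.67% in the latter, and this property of the values and the treatment cannot be told apart. The ADPKD+MMPP values may have been made in another way than those of the other 4 libraries, which was not tested, so every difference from them holds for the values as deposited. Depths and read numbers may likewise not count the same unit in the ADPKD+MMPP libraries and in the others. The targeted gene *Pkd1* had 17.7 and 17.2 FPKM in WT, 7.64 and 8.91 FPKM in ADPKD, and 4.34 and 3.99 FPKM after MMPP, so the groups did not overlap. Nor did they for 67.0% of all genes in ADPKD against WT and 87.8% in ADPKD+MMPP against ADPKD. In the latter the centred value of *Pkd1*, of the kind described below, was -0.18 and was not called. The principal cell markers summed to 2096–2796 FPKM in the WT libraries, to 957–2502 FPKM in ADPKD and to 5437–5458 FPKM with MMPP, and of these *Avpr2*, the vasopressin receptor, was close to 0 in every library. *Aqp2* alone had a mean of 3527 FPKM with MMPP. In ADPKD+MMPP against ADPKD, 4 of the 8 tested were called higher and 2, *Aqp4* and *Scnn1b*, lower, beside 27.9% and 43.0% of all genes. In the centred values described below, 1 was called higher and 1 lower. Markers of other cells were also present and moved with the groups. In ADPKD against WT, where 14.2% of all genes were called higher and 12.5% lower, all 7 intercalated cell markers, 4 of 4 podocyte markers, 5 of 6 endothelial markers and 4 of 6 thick limb and distal tubule markers were called lower. All 9 macrophage and leukocyte markers and 3 of 5 fibroblast markers were called higher. Against these directions, 1 fibroblast marker, *Pdgfrb*, was called lower (-1.12) and 1 endothelial marker, *Plvap*, was called higher (0.92). In ADPKD+MMPP against ADPKD, where 27.9% of all genes were called higher, so were 12 of 14 proximal tubule markers and 7 of 7 intercalated cell markers, the former with sums of 1486–2085 and 22898–24077 FPKM. In bulk samples, fewer cells of a type and less RNA per cell cannot be told apart, and the part of the cell mixture in the results below was not tested.

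In the WT cells the family spanned a range from *Crtc2* to *Creb1* on the FPKM scale, which allows comparison between genes because it is per length. *Crtc2* led with 42.6 ± 3.48 FPKM (SD, n = 2). *Creb3* and *Atf1* followed with 18.1 ± 1.43 and 17.5 ± 1.42 FPKM and their libraries overlapped. *Ep300* at 13.0 ± 1.06 FPKM stood above its paralog *Crebbp* at 9.95 ± 0.162 FPKM. Below them came *Crem* with 7.40 ± 0.913, *Crtc3* with 5.92 ± 0.321 and *Creb3l1* with 4.93 ± 0.310 FPKM, each with libraries apart from its neighbours. *Crtc1* and *Creb1* were lowest, with 3.94 ± 0.697 and 3.56 ± 0.0339 FPKM, and did not differ beyond their spread. By their means, *Crtc2* was also highest and *Creb1* lowest in ADPKD, where *Creb1* and *Crtc1* overlapped. In ADPKD+MMPP the order ran from *Creb3* (21.3 ± 2.45 FPKM), *Atf1* (15.6 ± 0.177) and *Ep300* (13.2 ± 0.138) down to *Creb1* (2.59 ± 0.0187) and *Crtc1* (1.03 ± 0.0572), and *Crtc2*, at 4.52 ± 1.01 FPKM, stood below *Creb3l1* (8.92 ± 0.267) and *Crtc3* (8.13 ± 0.734) and overlapped *Crem* (3.79 ± 0.824). These genes differ in the gene model property described below, so the ADPKD+MMPP order holds only for the values as deposited. Of the exon bases, 25.1% in *Crtc2*, 86.6% in *Crtc3* and 100% in *Creb3l1* lie in 1 transcript. The part of this in the order was not tested.

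**Figure D1:**
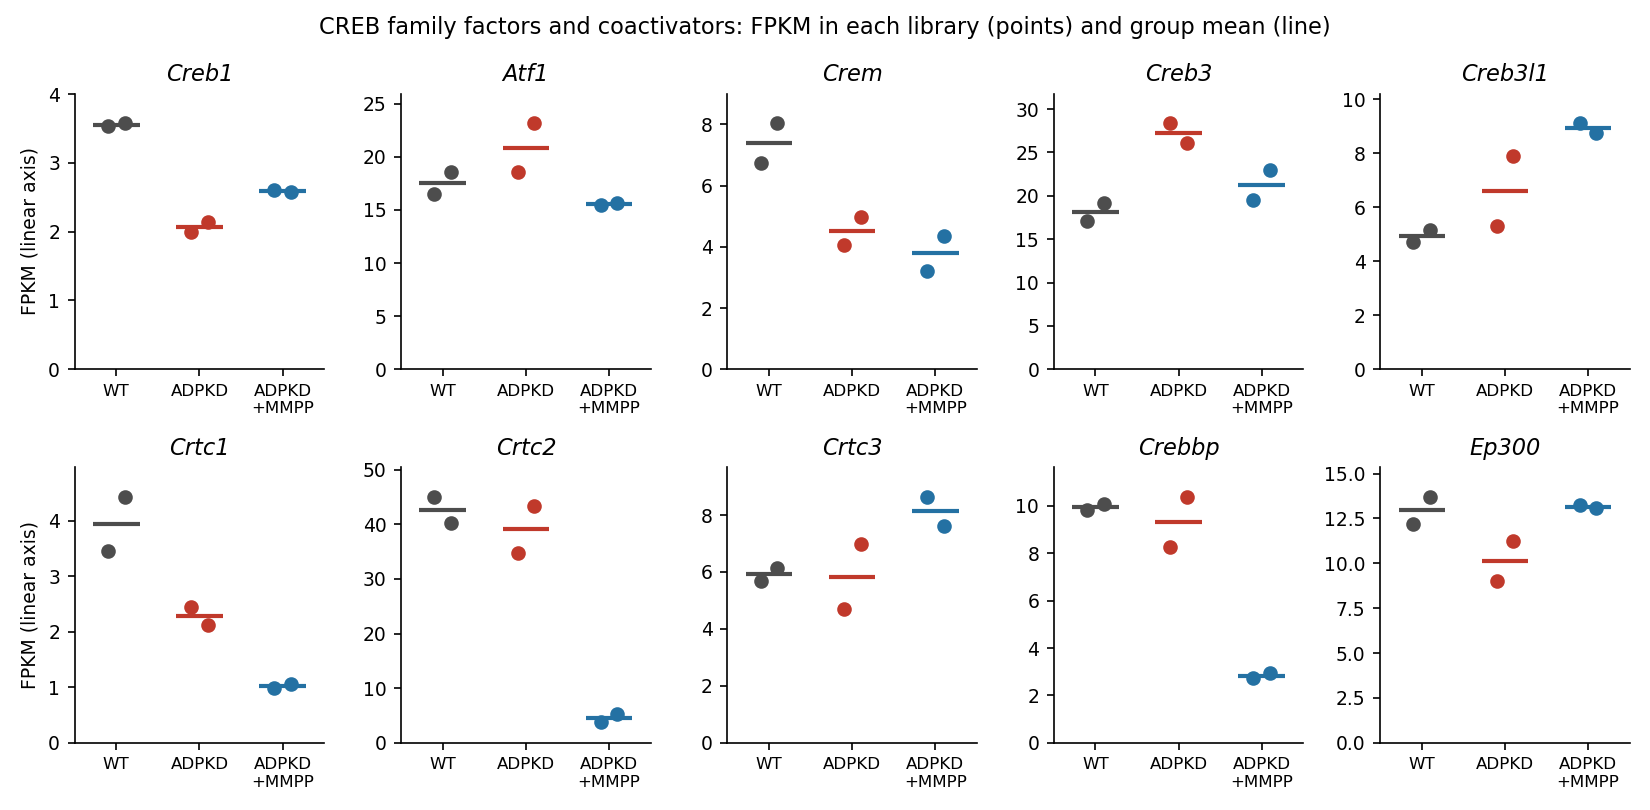
FPKM (y axis, linear, from 0, its own range for each gene) of the 10 genes in the 6 libraries, with points for libraries coloured by group and a line at each group mean. *Crtc2*, *Crebbp* and *Crtc1* sit lowest in the ADPKD+MMPP libraries, while *Crem* and *Creb1* are highest in the WT libraries.

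In ADPKD against WT, *Crem* was called lower. *Creb1* and *Crtc1* were lower and *Creb3* higher, each short of the fold threshold on the log2(FPKM + 1) scale. In mean FPKM, *Creb1*, *Crtc1* and *Creb3* each passed 1.5-fold, with *Creb1* 1.72-fold and *Crtc1* 1.73-fold lower in ADPKD. A call required a change of 1.5-fold or more on the log2(FPKM + 1) scale, which understates the change of low genes, together with an unadjusted P under 0.05 from limma. By this rule 1 of the 10 genes was called in ADPKD against WT, beside 26.7% of all genes tested, and none was called higher, beside 14.2%. The call was lower, beside 12.5% of all genes called lower. With a threshold of 0.05 on the Benjamini-Hochberg adjusted p in its place none of the 10 was called, beside 22.5% of all genes. For 7 of the 10 the WT and ADPKD libraries did not overlap, beside 67.0% of all genes. The median log2 fold change was -0.11 over the 10 genes and 0.03 over all genes tested. With the libraries centred for gene models, as described below, 0 of the 10 were called higher and 3 lower, beside 13.7% and 13.5% of 12374 protein-coding genes.

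*Creb1* encodes CREB itself, the factor through which protein kinase A acts on transcription. It lies on chromosome 1 from 64532645 to 64604548 on the plus strand. Its level was 3.53 and 3.58 FPKM in WT and 1.99 and 2.14 FPKM in ADPKD. These correspond to 1484, 1523, 905 and 944 reads, and both ADPKD libraries lay below both WT libraries. The mean was 1.72-fold lower in ADPKD, and on the log2(FPKM + 1) scale the difference was -0.57 ± 0.11 (SE) with a Benjamini-Hochberg adjusted p of 0.0168 in limma. It missed the call by its fold only. With a pseudocount of 0.1 in place of 1 the difference was -0.76 and was called lower, and it was also called with libraries scaled to a common sum (-0.65), after centring on the gene model bins described below (-0.65) and without ADPKD replicate 2 (-0.61).

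*Crem*, which encodes activators and, from an internal promoter, the cAMP-inducible repressor ICER, was the gene called lower in ADPKD. It lies on chromosome 18 from 3266048 to 3337748 on the minus strand and has 39 annotated transcripts, which the gene-level values pool. Its level was 6.75 and 8.04 FPKM in WT but 4.05 and 4.98 FPKM in ADPKD, so the groups did not overlap. The mean was 1.64-fold lower, the log2 difference -0.61 ± 0.18 (SE) and the adjusted p 0.0567 in limma. The call was lost without WT replicate 2 (-0.50) and without ADPKD replicate 1 (-0.49), and with a threshold on the adjusted p in place of the unadjusted one. Of its exon bases, 472 (8.01%) are shared with *Gm6225* on the opposite strand, and whether the reads were counted by strand is not given in the sources used here.

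*Atf1*, the third cAMP-responsive factor, binds the same elements as CREB and pairs with it. It lies on chromosome 15 from 100227819 to 100261244 on the plus strand. Its level was 16.5 and 18.5 FPKM in WT and 18.5 and 23.2 in ADPKD. The ADPKD libraries lay above the WT libraries by a narrow margin, and the log2 difference of 0.23 ± 0.15 (SE) did not pass the test in limma (adjusted p = 0.291).

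Within the sum of *Creb1*, *Atf1* and *Crem*, the ADPKD cells held a larger part of *Atf1*. The sum was 28.5 ± 2.37 FPKM in WT cells, 27.4 ± 4.04 FPKM in ADPKD cells and 21.9 ± 0.982 FPKM with MMPP (SD, n = 2 each). In WT *Atf1* made up 61.6% and 61.5% of it, against 75.4% and 76.5% in ADPKD and 72.7% and 69.3% after MMPP. *Creb1* made up 13.2% and 11.9%, then 8.10% and 7.07%, then 12.2% and 11.4% in the same order, so that its ADPKD libraries were the lowest. *Crem* made up 25.2% and 26.7% in WT, 16.5% and 16.4% in ADPKD, and 15.1% and 19.3% with MMPP. Such shares do not depend on how a library is scaled, but these genes differ in the gene model property described below. Of the exon bases, 60.4% in *Creb1*, 56.3% in *Atf1* and 28.5% in *Crem* lie in 1 transcript, and the part of this in the ADPKD+MMPP shares was not tested. The shares are given as values, with no test.

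**Figure D2:**
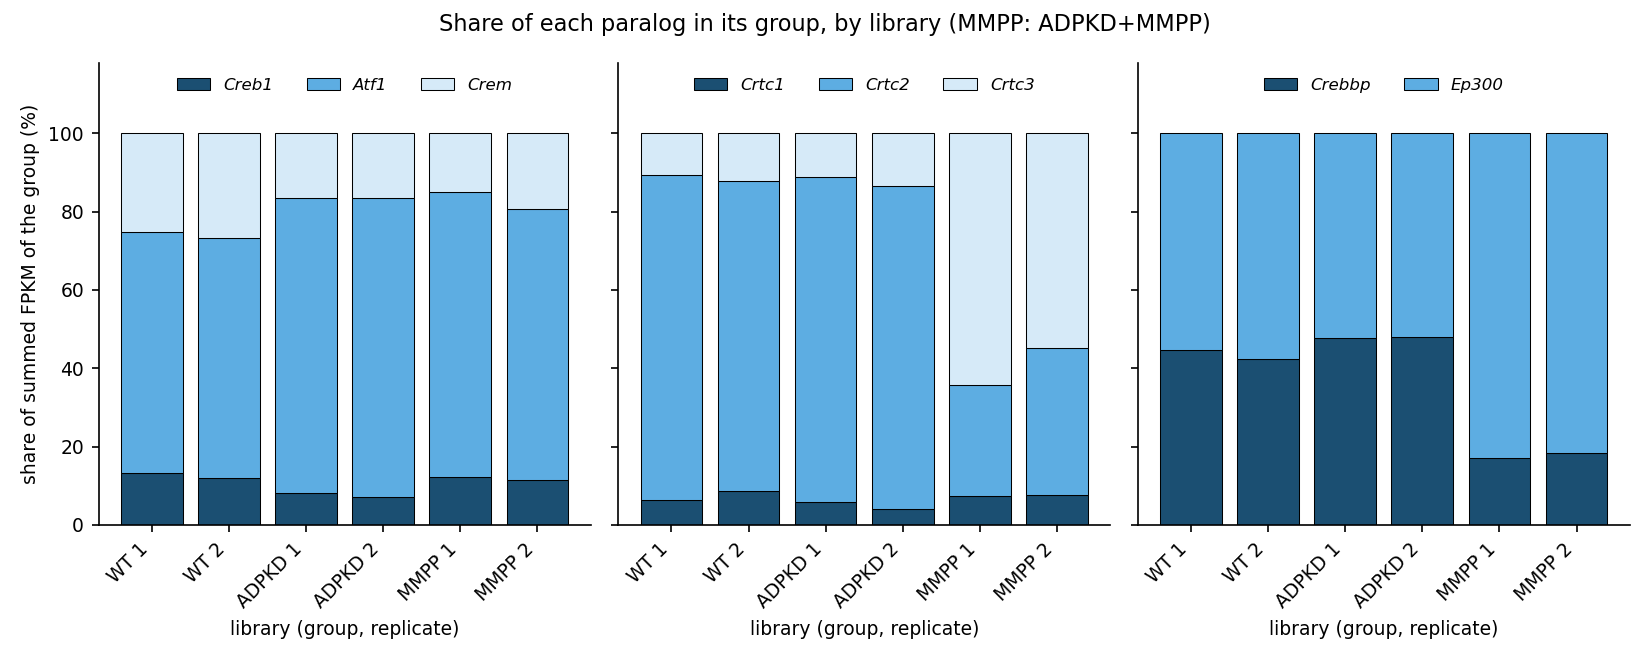
Share of each paralog (percent) in the summed FPKM of its family, 1 stacked bar for each library, for the CREB factors, the CRTC coactivators and the CBP and p300 pair. *Atf1* fills a larger part of the first family in the ADPKD libraries, and *Crtc2* and *Crebbp* fill a smaller part of theirs in the ADPKD+MMPP libraries.

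Neither of the membrane-bound factors was called between ADPKD and WT. *Creb3*, a factor of the secretory pathway, lies on chromosome 4 from 43562332 to 43567060 on the plus strand. It had 17.1 and 19.1 FPKM in WT and 28.4 and 26.1 in ADPKD, with both ADPKD libraries above both WT libraries. The log2 difference was 0.56 ± 0.14 (SE), with an adjusted p of 0.0340 in limma, and it missed the call by its fold only. It was called higher with a pseudocount of 0.1 (0.59), without WT replicate 2 (0.64) and without ADPKD replicate 2 (0.62). *Creb3* shares 493 exon bases (20.8%) with *Gba2* and *Tln1* on the opposite strand. *Creb3l1*, which drives collagen and secretory genes in matrix-producing cells, lies on chromosome 2 from 91982328 to 92024502 on the minus strand and has 1 annotated transcript. It had 4.71 and 5.15 FPKM in WT and 5.31 and 7.90 in ADPKD. The ADPKD libraries were both above the WT libraries but far apart from each other, and the log2 difference of 0.34 ± 0.19 (SE) did not pass the test in limma (adjusted p = 0.228). Without ADPKD replicate 1 it was 0.59 and was called higher.

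None of the CRTC coactivators was called between ADPKD and WT. *Crtc1*, the CRTC best known from neurons, lies on chromosome 8 from 70382355 to 70439579 on the minus strand. It had 3.45 and 4.43 FPKM in WT and 2.45 and 2.12 in ADPKD, with no overlap, and its log2 difference of -0.58 ± 0.15 (SE, adjusted p = 0.0350 in limma) was just inside the log2 threshold of 0.585 and was not called. It was called lower in 7 of the alternatives tried, with values from -0.59 to -0.75, among them without WT replicate 1 (-0.73) and without ADPKD replicate 1 (-0.66). *Crtc2*, the coactivator of hepatic gluconeogenesis and the most abundant member in WT, lies on chromosome 3 from 90254163 to 90264125 on the plus strand. It had 45.1 and 40.2 FPKM in WT and 34.7 and 43.4 in ADPKD, and the groups overlapped. Its log2 difference was -0.13 ± 0.19 (SE, adjusted p = 0.643 in limma). *Crtc3*, the paralog studied in adipose tissue, lies on chromosome 7 from 80586627 to 80688877 on the minus strand. With 5.69 and 6.15 FPKM in WT and 4.69 and 6.98 in ADPKD, the ADPKD libraries enclosed the WT libraries (-0.037 ± 0.19, SE, adjusted p = 0.903 in limma).

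The acetyltransferases showed no call in the cystic cells. *Crebbp*, which encodes CBP, lies on chromosome 16 from 4081328 to 4213997 on the minus strand. It had 9.83 and 10.1 FPKM in WT and 8.28 and 10.4 in ADPKD, which overlapped (-0.091 ± 0.14, SE, adjusted p = 0.666 in limma). *Ep300*, which encodes p300, lies on chromosome 15 from 81585351 to 81652077 on the plus strand. It had 12.2 and 13.7 FPKM in WT and 9.03 and 11.2 in ADPKD, so that both ADPKD libraries were lower, and its log2 difference was -0.33 ± 0.15 (SE, adjusted p = 0.147 in limma). Replicate 2 lay above replicate 1 for 8 of the 10 genes in ADPKD and for 9 of the 10 in WT. Without ADPKD replicate 1 the log2 differences of *Crtc2*, *Crtc3* and *Crebbp* from WT turned to 0.027, 0.21 and 0.058.

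In the values as deposited, *Crtc2*, *Crebbp* and *Crtc1* were called lower in the MMPP-treated than in the saline-treated ADPKD cells. Of these calls, that of *Crtc2* alone was also made in the values centred for gene models, as given below. By the same rule, 3 of the 10 genes were called in ADPKD+MMPP against ADPKD, beside 70.9% of all genes tested. All 3 were lower, beside 43.0% of all genes called lower, and no member was called higher, beside 27.9% of all genes. With a threshold on the adjusted p the same count of 3 was reached, beside 70.3% of all genes. For 9 of the 10 the treated and untreated libraries did not overlap, beside 87.8% of all genes. The median log2 fold change was -0.28 over the 10 genes and -0.36 over all genes tested. The comparison shares its ADPKD libraries with the comparison against WT above.

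In this comparison the changes of all genes moved with a property of the gene models, namely how much of the exon sequence belongs to a single annotated transcript. Among 12374 protein-coding genes in 20 bins of this share, the median log2 change ran from -1.70 in the bin with the lowest share to 1.15 in the bin with the highest. Between ADPKD and WT the medians of the bins that hold the 10 genes ran from -0.03 to 0.07. The 4 members that stood higher in ADPKD+MMPP (*Creb1*, *Ep300*, *Crtc3* and *Creb3l1*) had shares of 60.4% to 100%, and the 6 that stood lower had shares of 25.1% to 56.3%. The part of this property in the changes of the 10 genes was not tested. For each gene the log2 difference is therefore also given after each library was centred on its own median within the bin, as a centred value. Because the median level of a bin and the median change of its genes are different quantities, a centred value is not the plain difference less the median change. Between the treated and untreated ADPKD cells, 2 of the 10 genes were called higher and 3 lower in these values, beside 33.8% and 24.5% of the protein-coding genes.

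**Figure D3:**
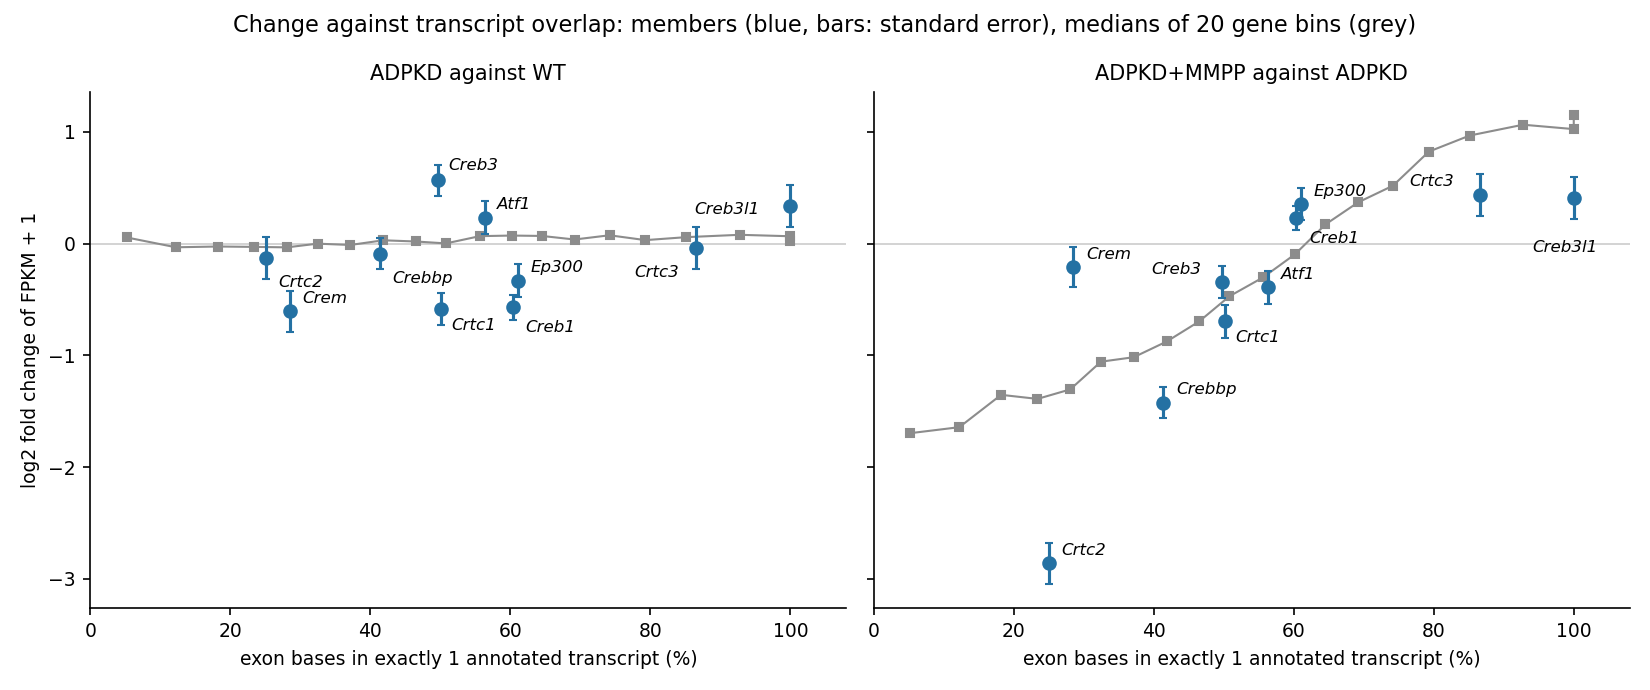
Log2 fold change of FPKM + 1 (y axis) against the percent of exon bases in exactly 1 annotated transcript (x axis) for the 10 genes with standard errors, with the medians of 20 bins of protein-coding genes in grey. The grey line is flat for ADPKD against WT and climbs from -1.70 to 1.15 for ADPKD+MMPP against ADPKD, where *Crtc2* lies at -2.86.

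*Crtc2* had the largest difference of the 10 genes in the values as deposited. Its 34.7 and 43.4 FPKM in the ADPKD libraries stood against 3.81 and 5.24 in the ADPKD+MMPP libraries, which rest on 184 and 234 reads. The groups were far apart, and the mean was 8.64-fold lower with MMPP. The log2 difference was -2.86 ± 0.19 (SE), with an adjusted p of 7.31e-05 in limma. Only 25.1% of its exon bases lie in 1 transcript, and the bin it falls in had a median change of -1.39. Its centred value of -1.22 was still called lower, and the call was kept under each of the other alternatives tried.

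*Crebbp* followed, with 8.28 and 10.4 FPKM in ADPKD and 2.74 and 2.92 in ADPKD+MMPP. Both treated libraries lay below both untreated ones, and the mean was 3.30-fold lower. The log2 difference was -1.42 ± 0.14 (SE), with an adjusted p of 0.000295 in limma. The median change of its bin was -0.88, and the centred value of -0.31 was not called. *Ep300*, its paralog with overlapping functions, had 9.03 and 11.2 FPKM in ADPKD and 13.3 and 13.1 in ADPKD+MMPP. Both treated libraries were higher, and the log2 difference of 0.35 ± 0.15 (SE, adjusted p = 0.0669 in limma) was not called, while it was called higher in its centred value of 0.70, with TMM factors (0.67) and with quantile normalization (0.59). Of the summed FPKM of the pair, *Crebbp* thus made up 44.6% and 42.3% in WT, 47.8% and 48.1% in ADPKD, and 17.1% and 18.3% with MMPP. The share of exon bases in 1 transcript is 41.4% in *Crebbp* and 61.1% in *Ep300*, so the paralogs differ in the property along which all genes moved.

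*Crtc1* was lower in the treated cells as well. It had 2.45 and 2.12 FPKM in ADPKD and 0.985 and 1.07 in ADPKD+MMPP, the last from 130 reads in each library. The mean was 2.23-fold lower, and the log2 difference was -0.70 ± 0.15 (SE, adjusted p = 0.00591 in limma). The call was lost with TMM factors (-0.50), with quantile normalization (-0.07) and in the centred values (-0.05). *Crtc3* had 4.69 and 6.98 FPKM in ADPKD and 8.65 and 7.61 in ADPKD+MMPP, with both treated libraries above the others. Its log2 difference of 0.44 ± 0.19 (SE, adjusted p = 0.0790 in limma) was not called, and its centred value of -0.67 was of the opposite sign and was called lower. With TMM factors (0.73) and quantile normalization (0.86) the uncentred difference was called higher. Without ADPKD replicate 2 the differences of *Crtc3* (0.68) and *Creb3l1* (0.65) from ADPKD were called higher. The CRTC sum was 47.2 ± 7.48 FPKM in ADPKD and 13.7 ± 0.335 in ADPKD+MMPP (SD, n = 2 each). *Crtc2* made up 83.0% and 82.7% of it in ADPKD and 28.3% and 37.6% in ADPKD+MMPP, and *Crtc3* 11.2% and 13.3%, then 64.4% and 54.7%. Their exon bases in 1 transcript, 25.1% and 86.6%, lie near the opposite ends of the gene models.

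The DNA-binding members were not called between ADPKD+MMPP and ADPKD. *Creb1*, at 1.99 and 2.14 FPKM in ADPKD, had 2.60 and 2.57 in ADPKD+MMPP, from 422 and 386 reads. Both treated libraries were above the ADPKD libraries and below the WT libraries, and the log2 difference from ADPKD was 0.23 ± 0.11 (SE, adjusted p = 0.107 in limma). *Atf1*, with 15.4 and 15.7 FPKM, lay below the ADPKD libraries (-0.39 ± 0.15, SE, adjusted p = 0.0531 in limma). *Crem*, with 3.20 and 4.37 FPKM, overlapped them, and its log2 difference was -0.21 ± 0.18 (SE, adjusted p = 0.323 in limma). Only 28.5% of the exon bases of *Crem* lie in 1 transcript, and its centred value of 1.51 was called higher. No direction can therefore be given for *Crem* in this comparison. The centred values of *Creb1* and *Atf1* were 0.57 and 0.27 and were not called, but *Creb1* was called higher with quantile normalization (0.86) and *Atf1* lower with a common sum of FPKM (-0.68).

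*Creb3* had 19.6 and 23.0 FPKM in ADPKD+MMPP, between the WT and the ADPKD libraries. It differed from ADPKD by -0.34 ± 0.14 on the log2 scale (SE, adjusted p = 0.0639 in limma), and the centred value was 0.30, while with a common sum it was called lower (-0.64). *Creb3l1* had 9.11 and 8.73 FPKM, above both other groups. Its log2 difference from ADPKD was 0.41 ± 0.19 (SE, adjusted p = 0.0926 in limma), which was not called. It was called higher with TMM factors (0.71) and with quantile normalization (0.79), and its centred value of -0.66 was called lower, so no direction can be given.

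**Figure D4:**
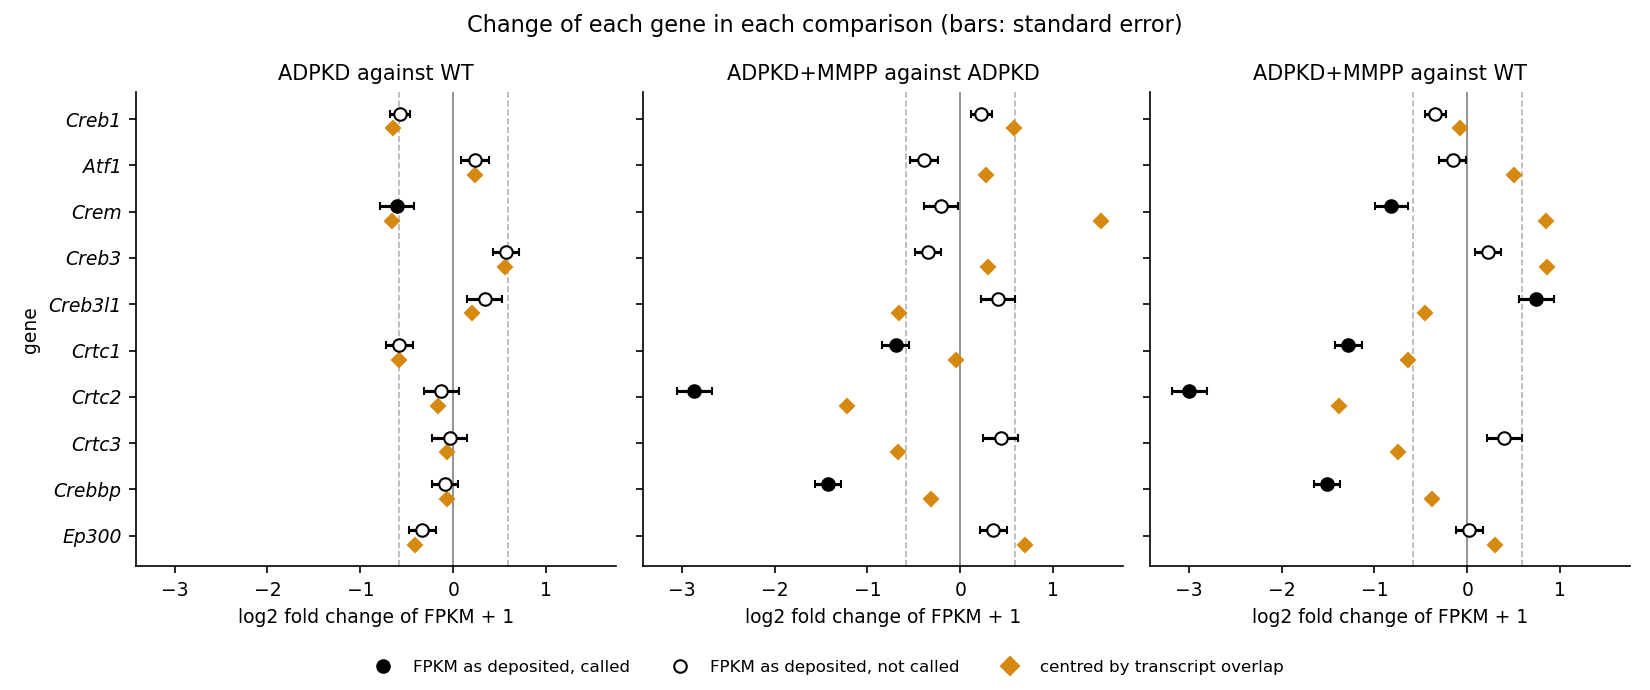
Log2 fold changes of FPKM + 1 with standard errors for the 10 genes in the 3 comparisons, with filled circles for calls, open circles for no call, orange diamonds for centred values and dashed lines at the fold threshold of 1.5. Between ADPKD and WT the 10 genes lie between -0.61 and 0.56, and with MMPP *Crtc2* lies at -2.86 against ADPKD and -2.99 against WT.

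Against WT, the treated cells differed in 5 of the 10 genes, beside 73.9% of all genes tested, and the count was the same with a threshold on the adjusted p, beside 73.4%. *Crtc2*, *Crebbp*, *Crtc1* and *Crem* were called lower, beside 43.8% of all genes, and *Creb3l1* was called higher, beside 30.1%. The libraries did not overlap for 9 of the 10, beside 91.9% of all genes, and the median log2 fold change was -0.25 over the 10 genes and -0.36 over all. The levels were 9.42-fold lower for *Crtc2* (log2 difference -2.99, adjusted p = 5.45e-05), 3.51-fold lower for *Crebbp* (-1.51, adjusted p = 0.000204) and 3.84-fold lower for *Crtc1* (-1.28, adjusted p = 0.000442), all from limma. *Crem* was 1.95-fold lower (-0.82, adjusted p = 0.00689 in limma) and *Creb3l1* 1.81-fold higher (0.74, adjusted p = 0.0116 in limma). The call of *Crem* was lost with TMM factors (-0.56) and quantile normalization (-0.29), and that of *Creb3l1* with a common sum (0.40). In the centred values 2 of the 10 were called higher and 3 lower, beside 35.9% and 26.7% of the protein-coding genes. They were -1.38 for *Crtc2*, -0.64 for *Crtc1* and -0.75 for *Crtc3*, each called lower, and -0.38 for *Crebbp* and -0.46 for *Creb3l1*, neither called. For *Crem* the centred value of 0.85 was called higher, as was that of 0.86 for *Creb3*. *Ep300* overlapped between the groups, at 0.02 ± 0.15 (SE, adjusted p = 0.896 in limma), and *Creb1* was lower in both treated libraries without being called (-0.34, adjusted p = 0.0288 in limma).

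The relatives and regulators of the family were counted from lists of 40 genes, of which 38 were tested and *Creb3l3* and *Camk4* were not. In ADPKD against WT, 2 were called higher and 3 lower, beside 14.2% and 12.5% of all genes. In ADPKD+MMPP against ADPKD, 11 were called higher and 16 lower, shares near the 27.9% and 43.0% of all genes. In the centred values 11 were higher and 15 lower, where 33.8% and 24.5% of the protein-coding genes were. Among 12 bZIP relatives, 1 was called higher and 1 lower in ADPKD. *Creb5*, a CRE-binding factor, had 1.69 ± 0.198 FPKM in WT and 3.50 ± 0.371 in ADPKD (SD, n = 2, log2 difference 0.74, adjusted p = 0.0123 in limma), and *Crebl2*, a CREB-like factor, had 3.65 ± 0.284 and 1.65 ± 0.252 (-0.82, adjusted p = 0.0105 in limma). With MMPP both lay on the other side of the WT level: *Creb5* fell to 0.645 ± 0.0410 FPKM and *Crebl2* rose to 12.2 ± 0.730. Their centred log2 differences from ADPKD, -1.10 and 1.21, were also called. *Atf5*, a stress-responsive factor, fell by 2.61 on the log2 scale with MMPP (adjusted p = 0.00031 in limma), with a centred value of -0.67 that was called lower (adjusted p = 0.0601 in limma).

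Of 10 tested kinases that phosphorylate CREB, 1 was called lower in ADPKD, beside 12.5% of all genes, and 1 higher and 6 lower with MMPP, beside 27.9% and 43.0%. *Camk1*, a calcium and calmodulin-dependent kinase, had 15.8 and 14.1 FPKM in WT and 10.9 and 6.14 in ADPKD, and its log2 difference of -0.79 passed the call with an adjusted p of 0.0663 in limma. *Prkaca*, the main catalytic subunit of protein kinase A, had 39.1 ± 1.08 FPKM (SD, n = 2) in ADPKD+MMPP, 2.17 times its level in ADPKD, a log2 difference of 1.09 with an adjusted p of 0.00111 in limma and a centred value of 1.73. *Prkacb*, another catalytic subunit, named after its values were seen, went from 8.27 ± 0.969 to 3.45 ± 0.406 FPKM (SD, n = 2, log2 difference -1.06, adjusted p = 0.000893 in limma), and its centred value of -0.39 was not called. *Rps6ka1*, the kinase RSK1, had 8.29 ± 0.101 and 0.230 ± 0.101 FPKM in the same groups, a log2 difference of -2.92 with a centred value of -1.20, and *Rps6ka4*, the kinase MSK2, differed by -2.62 with a centred value of -0.68, each called. The 5 phosphatase genes had 1 call higher in ADPKD, *Ppp2ca* (0.64), a catalytic subunit of PP2A, beside 14.2% of all genes. Its centred value there of 0.52 was not called. With MMPP 2 of the 5 were called higher and 2 lower, beside 27.9% and 43.0% of all genes. *Ppp2ca* and *Ppp2cb* were higher (0.93 and 1.11), calls that the centred values (-0.14 and -0.10) did not have. *Ppp1ca*, a catalytic subunit of PP1, was lower (-3.87), with a centred value of -2.76. *Ppp1cc*, also named after its values were seen, was lower (-1.76), but its centred value of -0.04 was not called.

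The regulators of CRTC showed a single call in ADPKD. *Ppp3ca*, the calcineurin A alpha subunit, had 15.0 ± 0.780 FPKM in WT and 8.97 ± 0.181 in ADPKD (SD, n = 2), a log2 difference of -0.69 with an adjusted p of 0.0129 in limma, and the other 3 calcineurin genes were not called. None of the 5 salt-inducible kinases and related kinases was called in ADPKD, beside 26.7% of all genes, with *Stk11*, the kinase LKB1 that activates them, at -0.57 and *Mark2* at 0.35. The centred value of *Stk11* there, -0.60, was called lower. With MMPP 3 of the 5 were called lower, beside 43.0% of all genes, and in the centred values 1 was higher and 2 were lower. *Stk11* was called lower in both, at -2.53 and a centred value of -1.15, and *Ppp3r1*, the calcineurin regulatory subunit, was called higher at 1.58 with a centred value of 0.47 that was not called. The proteases that release CREB3 factors were not called in ADPKD. With MMPP *Mbtps1*, the site-1 protease, had 12.5 and 10.7 FPKM in ADPKD and 1.24 and 1.10 in ADPKD+MMPP (log2 difference -2.54, adjusted p = 3.88e-05 in limma, centred -2.19), and *Mbtps2*, the site-2 protease, went from 1.29 ± 0.136 to 3.20 ± 0.240 FPKM (SD, n = 2, log2 difference 0.88, adjusted p = 0.00104 in limma, centred 1.53).

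Across the 6 libraries, the genes whose log2(FPKM + 1) followed that of *Creb1* most closely among 7631 genes with a mean FPKM of at least 5 were *Fam167b* (Pearson's r = 0.994), *Tmod3* (0.993) and *Amotl1* (0.989). For *Crem* they were *Cracr2b* (0.983), *Plppr3* (0.982) and *Lfng* (0.980). These are descriptions over 6 points in 3 groups, whose points share the same libraries, and carry no test.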

How the data were processed

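The authors aligned reads to mm10 (HISAT2 2.1.0), counted them on genes (featureCounts 1.6.0) and deposited FPKM for each library. How FPKM was made from the counts, the annotation release and the use of strand are not given in the sources used here. The authors' DESeq2 was not used, because FPKM are not counts. Of 55367 symbols, 53253 matched 1 gene of GENCODE vM21 (GRCm38). FPKM times exon length gave whole reads for 98.4% to 99.0% of low values (tolerance 0.05 reads), and from these the depth of 10.9 to 33.1 M reads. With 2 libraries per group, counting error was not modelled.

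The filter kept genes that reached 1 FPKM in 2 or more libraries. The test was limma 3.58.1 (R 4.3.3), 2-sided, on log2(FPKM + 1) in one fit over 6 libraries, with Benjamini-Hochberg adjustment over 14862 genes. Adjusted p-values in the text are from this fit. Calls needed a fold change of 1.5 and an unadjusted P under 0.05, the thresholds of the study. The step was tested on simulated data. Alternatives covered the pseudocount, filter, scaling, trend, libraries in the fit, thresholds, a replicate block, leaving out each library, and centring within 20 bins of the share of exon bases in 1 transcript. The members and the lists were chosen with earlier results of these data known. Named genes are the 10 members, *Pkd1*, up to 4 per list of relatives and regulators (highest and lowest change in each of 2 comparisons), the 3 genes most correlated with *Creb1* and *Crem*, and cell type markers by list. The centring of the relatives was added after seeing the data.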

Additional observations from a re-analysis of the deposited data

How the results depend on the processing

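Over the 10 genes and 3 comparisons, 474 of the values under an alternative kept the direction and the side of the threshold, 31 gained a call, 15 lost one and 20 turned in sign. The alternatives of threshold, filter, trend and replicate block leave the log2 difference unchanged by design, as does leaving out a library of the group not compared. The 474 are therefore partly fixed in advance and do not measure robustness. In ADPKD against WT, the count called higher was 1 in place of 0 with a pseudocount of 0.1 and 0 to 1 with a library left out. The count called lower, 1 as reported, was 0 with adjusted p-values or a fold of 2, 3 with a pseudocount of 0.1, a common sum of FPKM or the centred values, 2 with TMM factors or quantile normalization, and 0 to 2 with a library left out. In ADPKD+MMPP against ADPKD, the count called higher was 0 as reported. It was 3 with TMM factors, 4 with quantile normalization, 2 in the centred values and 0 to 2 with a library left out. The count called lower, 3 as reported, was 5 with a common sum and 2 with a fold of 2, TMM factors or quantile normalization. In the centred values it was also 3, but there the genes were *Creb3l1*, *Crtc2* and *Crtc3*. In ADPKD+MMPP against WT, the count called higher was 1 as reported. It was 0 with a fold of 2 or a common sum and 2 with TMM factors, quantile normalization or the centred values. The count called lower stayed within 1.5 times its value of 4 under each alternative, but the genes changed. In the centred values *Crtc1*, *Crtc2* and *Crtc3* were called lower, *Crebbp* was not called and *Crem* was called higher (0.85). Scaling moved the median log2 change of all genes between ADPKD+MMPP and ADPKD from -0.36 to -0.55 with a common sum, -0.14 with TMM factors and 0.10 with quantile normalization.

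The signs that turned were those of values near 0 or of the treated libraries. In ADPKD against WT, *Crtc2* was 0.027, *Crtc3* 0.21 and *Crebbp* 0.058 without ADPKD replicate 1, the highest of their values with a library left out, and -0.28, -0.28 and -0.24 without ADPKD replicate 2, the lowest. *Crtc3* was 0.011 without WT replicate 2. In ADPKD+MMPP against ADPKD, centring turned *Atf1* (0.27), *Crem* (1.51), *Creb3* (0.30), *Creb3l1* (-0.66) and *Crtc3* (-0.67), and *Crem* was also 0.064 with TMM factors and 0.40 with quantile normalization. In ADPKD+MMPP against WT, centring turned *Atf1* (0.50), *Crem* (0.85), *Creb3l1* (-0.46) and *Crtc3* (-0.75). There *Atf1* was 0.13 with TMM factors, *Creb1* 0.28 with quantile normalization, *Creb3* -0.16 and *Ep300* -0.35 with a common sum, and *Ep300* -0.056 without WT replicate 1, with 0.10 as its highest value. The causes were not tested. Replicate numbers are shared by the groups, and deviations of same-numbered libraries correlated at 0.13 (WT and ADPKD), -0.01 (WT and ADPKD+MMPP) and 0.01 (ADPKD and ADPKD+MMPP). Each group gives a single difference between its libraries, so these values cannot decide whether same-numbered libraries share more than a number. A fit with the replicate block called 0 higher and 1 lower, 0 higher and 3 lower, and 1 higher and 4 lower in the 3 comparisons, the counts reported. The depth of 10.9 to 11.8 M reads limits the treated libraries most, where *Crtc1* rests on 130 reads in each. With odd read numbers at 7.17% to 7.67% of low values there, these may not be 130 independent reads, which was not tested.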
